A study of Mus musculus with 6 samples.

Results

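Cohesin is a ring of protein that holds sister chromatids together and folds chromosomes into loops. Transcripts of 10 mouse cohesin genes, Smc1a, Smc1b, Smc3, Rad21, Rec8, Stag1, Stag2, Stag3, Nipbl and Esco2, were examined in cells sorted from the adult brain of mice with full or partial deletion alleles of the retinoblastoma family. These genes were chosen by name and are 10 of the 55487 genes in the deposited table. RNA-seq was done on 6 libraries of YFP-positive cells from the subventricular zone, a neurogenic region of the adult forebrain, with 3 libraries per genotype. TKO mice were Rb(F/F);p107(-/-);p130(F/F), and THC mice were Rb(F/+);p107(+/-);p130(F/+), where F is a floxed allele that Cre recombinase deletes. Mice of both genotypes carried the Nestin-CreERT2 transgene, which expresses a tamoxifen-dependent Cre in neural stem and progenitor cells, and the R26-EYFP reporter, which marks cells in which Cre has acted, on a mixed C57BL/6;Sv/129 background. From 6 to 10 weeks of age both genotypes were gavaged with tamoxifen for 5 days (200 mg/kg daily), and cells were sorted 10 days after the last dose from pools of several mice. THC cells are therefore no wild type: they carry 1 deletable or deleted allele at each locus and received the same drug.

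The core ring has 3 parts, a pair of long ATPase arms (SMC1 and SMC3) and a kleisin that closes it, to which a STAG (SA) protein binds. Most dividing cells use SMC1A, RAD21 and STAG1 or STAG2, whereas germ cells in meiosis also make the replacements SMC1B, REC8 and STAG3. NIPBL loads the ring on DNA, and ESCO2 acetylates SMC3 during DNA replication, which keeps sister chromatids together until mitosis. RB, p107 and p130 hold back genes that E2F transcription factors drive in the cell cycle, and in mouse somatic cells the repressor E2F6 is known to silence Smc1b and Stag3.

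The 6 libraries held 15536084 to 16961817 reads over genes. Library 1 of each genotype belongs to a February batch and libraries 2 and 3 to a November batch. The gene for p107, Rbl1, had 14.5 to 42.0 normalized counts in TKO libraries and 497 to 646 in THC libraries. Rb1 averaged 3267 ± 355 in TKO and 1849 ± 199 in THC libraries, and Rbl2, the gene for p130, averaged 939.5 ± 32.9 in TKO and 1042 ± 202 in THC libraries (SD, n = 3 each). Gene totals do not show whether the floxed exons were removed. A normalized count is the read count divided by 1 factor per library. In bulk RNA, a larger share of cells of a type and more RNA per cell cannot be told apart.

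A gene was called higher or lower when limma's test of genotype, with batch in the model, gave a Benjamini-Hochberg adjusted p under 0.05 over 17278 genes. Of all genes tested, 14.3% were called higher in TKO and 13.6% lower, together 27.9%, and the median log2 change was -0.00. All 10 cohesin genes passed the filter on low values. Of the 10, 8 were called higher in TKO cells, 0 were called lower, and Rec8 and Nipbl passed in neither direction. All 3 TKO libraries lay above all 3 THC libraries for the same 8 genes, an arrangement that 19.4% of all genes showed. The median log2 change was 0.97 over the 10 genes, 0.95 in the February pair and 0.98 in the November libraries.

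**Figure D1:**
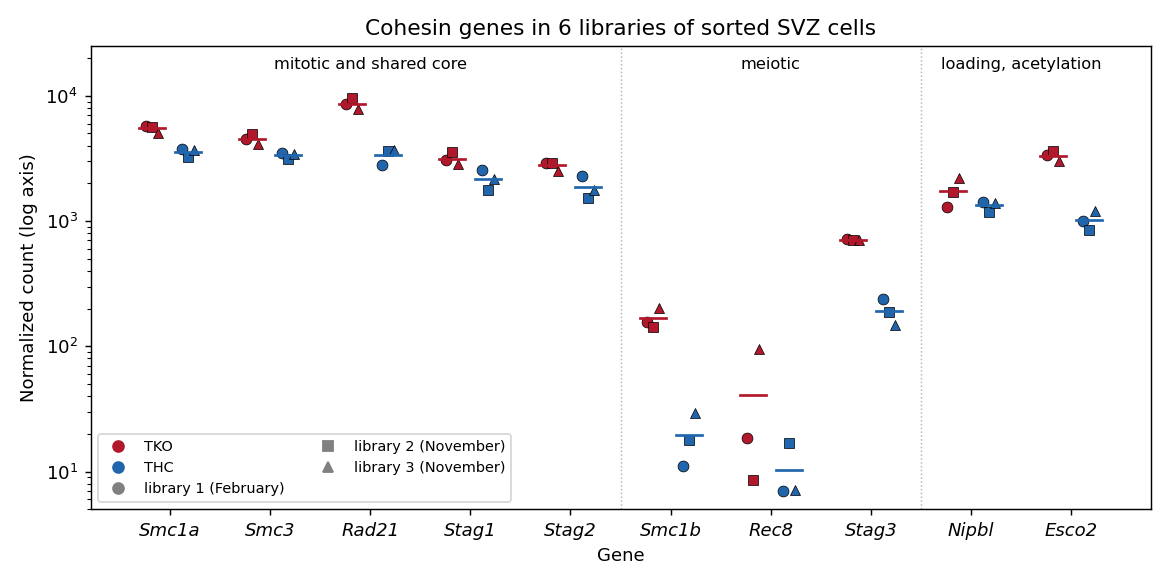
Normalized counts (log axis) of the 10 cohesin genes in each library, TKO in red and THC in blue, with a bar at the mean and a marker shape for each library number and batch. The TKO libraries lie above the THC libraries for 8 genes and overlap them for Rec8 and Nipbl.

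The meiotic subunit with the most reads was Stag3, the STAG protein of meiotic cohesin (GRCm38 chromosome 5, 138280240 to 138312393, plus strand). Stag3 had 722, 701 and 707 normalized counts in TKO 1, 2 and 3, and 238, 187 and 148 in THC 1, 2 and 3. The TKO libraries were nearly equal, and each was above every THC library. Stag3 averaged 710 ± 11.1 in TKO and 191 ± 44.7 in THC libraries (SD, n = 3 each), 3.77-fold higher in TKO (log2 change 1.91, SE 0.17, limma adjusted p = 9.5e-06). The log2 difference was 1.6 in the February pair and 2.07 in the November libraries.

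Smc1b encodes the SMC1 arm of meiotic cohesin and lies on chromosome 15 (85064689 to 85131964, minus strand). It had 157, 143 and 201 normalized counts in TKO 1, 2 and 3, against 11.03, 17.9 and 29.3 in THC 1, 2 and 3. The lowest TKO library was far above the highest THC library. The means were 167 ± 30.2 in TKO and 19.4 ± 9.22 in THC libraries (SD, n = 3 each), an 8.73-fold rise on the log2(value + 1) scale (log2 change 3.13, SE 0.34, limma adjusted p = 4.1e-05). These THC values rest on few reads, 11, 19 and 29, so the size of the change is less certain than its direction. It was 3.72 in the February pair and 2.83 in the November libraries.

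Rec8, the meiotic kleisin (chromosome 14, 55618037 to 55625395, plus strand), behaved differently from library to library. It had 18.5, 8.60 and 95.6 normalized counts in TKO 1, 2 and 3, and 7.02, 17.0 and 7.07 in THC 1, 2 and 3. TKO 3 alone stood far above the others, and TKO 2 lay below THC 2. Rec8 averaged 40.9 ± 47.6 in TKO and 10.4 ± 5.75 in THC libraries (SD, n = 3 each) and was not called (log2 change 1.32, SE 0.74, limma adjusted p = 0.22). Without TKO 3 the log2 change was 0.36 (limma adjusted p = 0.76), and without TKO 2 it was 2.27 and passed (limma adjusted p = 0.021). On reads recovered from the table the adjusted p was 0.081 by edgeR and 0.049 by DESeq2, and the authors' deposited table gives 0.055.

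The stretch of promoter around the RefSeq start is shown for the 3 meiotic genes. It is shown because E2F-bound promoters often carry a short GC-rich string and these genes differ in it. The sequences are RefSeq, build GRCm38.p6, and run 5′ to 3′ on the gene's strand from 110 bases before the start to 29 bases past it. The windows are chr5:138280399-138280538 (plus strand), chr15:85131928-85132067 (minus strand) and chr14:55618056-55618195 (plus strand). Those of Stag3 and Rec8 begin inside the gene spans given above, which came from another annotation. Capitals mark E2F letters, which are any of 4 strings on either strand. The E2F strings searched were TTCCCGC first, then TTGGCGC, then the variant TTCGCGC and last the variant TTGCCGC.
Stag3: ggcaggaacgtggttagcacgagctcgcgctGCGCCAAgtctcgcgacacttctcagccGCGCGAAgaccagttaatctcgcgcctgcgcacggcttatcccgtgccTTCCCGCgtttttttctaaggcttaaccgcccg
Smc1b: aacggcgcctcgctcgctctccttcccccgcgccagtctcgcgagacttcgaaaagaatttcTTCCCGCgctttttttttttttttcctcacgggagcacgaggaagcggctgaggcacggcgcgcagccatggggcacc
Rec8: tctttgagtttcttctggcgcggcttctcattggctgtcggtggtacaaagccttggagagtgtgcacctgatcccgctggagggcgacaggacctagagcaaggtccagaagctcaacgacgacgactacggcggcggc

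The Stag3 stretch held TTCCCGC at position -3. On its opposite strand it held TTGGCGC at position -79 and the variant TTCGCGC at position -51, counted from the start. The Smc1b stretch held TTCCCGC at position -48. The Rec8 window held none of these letters. Any of the 4 strings occurred in 3145 of 32851 RefSeq windows of 300 bases (9.57%), and TTCCCGC in 4.60% of them. Stag3 and Smc1b also shared AGTCTCGCGA, starting at -73 in Stag3 and -76 in Smc1b. This run of 10 bases was present in 67 windows (0.204%), and a second shared run, CTTCCCGCG, in 145 (0.441%). The first was picked as the longest run that both windows share, and the second contains the TTCCCGC already given. These shares therefore do not measure how unusual it is for a pair of windows to share a run. Other promoter strings were searched as well, so the windows do not differ in E2F letters alone. Smc1b held TTCGAA at -63 (TTTGAA or TTCGAA in 19.2% of windows). Stag3 held CACGTG at -170 (7.15%), and Stag3, Smc1b and Rec8 each held CCAAT (37.4%). A match to any of these letters is a description of the sequence and not a measured binding site.

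The kleisin of mitotic cohesin moved most among the somatic subunits. Rad21, which closes the ring and is cut by separase at anaphase (chromosome 15, 51962240 to 51991747, minus strand), had 8546, 9571 and 7829 normalized counts in TKO 1, 2 and 3. It had 2804, 3613 and 3705 in THC 1, 2 and 3. Every TKO library had more than any THC library. Rad21 averaged 8649 ± 876 in TKO and 3374 ± 496 in THC libraries (SD, n = 3 each), 2.57-fold higher (log2 change 1.36, SE 0.14, limma adjusted p = 2.5e-05).

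The SMC arms changed less. Smc1a, the arm used in somatic cells (chromosome X, 152016428 to 152062694, plus strand), had 5741, 5627 and 5090 normalized counts in TKO 1, 2 and 3, and 3749, 3268 and 3659 in THC 1, 2 and 3. The groups did not overlap, and Smc1a was 1.54-fold higher in TKO (log2 change 0.62, SE 0.12, limma adjusted p = 0.0028). Smc3, the arm that mitotic and meiotic rings share (chromosome 19, 53600398 to 53645833, plus strand), had 4545, 4947 and 4107 in TKO 1, 2 and 3, and 3489, 3124 and 3433 in THC 1, 2 and 3. Its TKO libraries were also all above its THC libraries, 1.35-fold on average (log2 change 0.43, SE 0.13, limma adjusted p = 0.024). This is the least firm of the 8 calls. It was lost without TKO 1 (limma adjusted p = 0.079), without TKO 2 (limma adjusted p = 0.13), without THC 1 (limma adjusted p = 0.083) and without THC 2 (limma adjusted p = 0.085), with log2 changes of 0.35 to 0.46. Leaving out TKO 1 or THC 1 leaves the other February library without a partner, so both settings repeat the November contrast.

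Stag1 and Stag2 encode the STAG proteins of mitotic cohesin, which a given ring uses one at a time. Stag1 (chromosome 9, 100597798 to 100959375, plus strand) had 3084, 3537 and 2828 normalized counts in TKO 1, 2 and 3, and 2555, 1767 and 2161 in THC 1, 2 and 3. Its groups did not overlap, and the log2 change was 0.55 (SE 0.15, limma adjusted p = 0.015). The Stag1 call was lost without TKO 2 (log2 change 0.42, limma adjusted p = 0.082) and without THC 2 (log2 change 0.43, limma adjusted p = 0.066). Stag2 (chromosome X, 42149317 to 42277185, plus strand) had 2927, 2909 and 2526 in TKO 1, 2 and 3, and 2286, 1539 and 1769 in THC 1, 2 and 3. It was 1.51-fold higher in TKO, again with no overlap (log2 change 0.60, SE 0.13, limma adjusted p = 0.0055). Smc1a and Stag2 are X-linked. Xist, which marks an inactive X chromosome, had 0 normalized counts in TKO 1 and 944 to 2047 in the other libraries, so the pools were not alike in sex. Without TKO 1 the log2 change was 0.63 for Smc1a and 0.72 for Stag2, and both remained called. The remaining pools still differed in Xist, so leaving out TKO 1 did not make them alike in sex. The part of sex in these changes was not tested.

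The loader and the acetyltransferase differed from each other. Esco2 (chromosome 14, 65819038 to 65833994, minus strand) had 3358, 3614 and 3001 normalized counts in TKO 1, 2 and 3, and 997, 844 and 1211 in THC 1, 2 and 3. All TKO values exceeded all THC values. The means were 3324 ± 308 in TKO and 1017 ± 184 in THC libraries (SD, n = 3 each), 3.29-fold higher (log2 change 1.72, SE 0.15, limma adjusted p = 8.0e-06). Nipbl (chromosome 15, 8290617 to 8444463, minus strand) had 1286, 1697 and 2186 in TKO 1, 2 and 3, and 1429, 1175 and 1406 in THC 1, 2 and 3. TKO 1 lay below THC 1 and THC 3, and Nipbl was not called (log2 change 0.34, SE 0.17, limma adjusted p = 0.17). Its log2 difference was -0.15 in the February pair and 0.58 in the November libraries, which alone would have been called (limma adjusted p = 0.030). Without TKO 1 and without THC 1, which repeat the November contrast, the adjusted p by limma was 0.030 and 0.031.

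**Figure D2:**
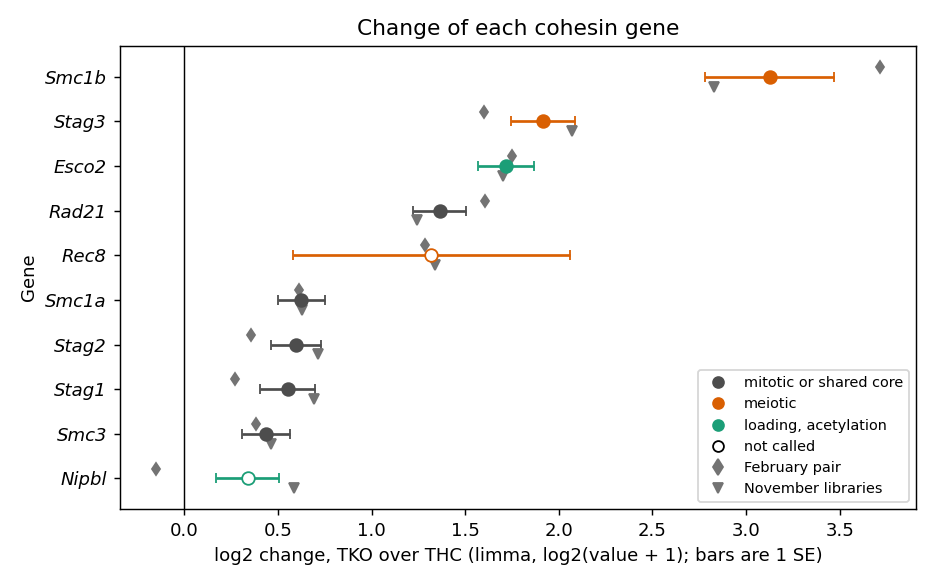
Log2 change of each cohesin gene, TKO over THC, from limma on log2(value + 1), with bars of 1 SE, filled points for called genes, and small grey marks for the February pair and the November libraries. Smc1b (3.13) and Stag3 (1.91) have the largest changes, and Rec8 has the widest error bar.

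Smc1a and Stag1 have a RefSeq window with E2F letters as well. The match to TTCCCGC is printed with up to 11 bases on each side, at chrX:152016455-152016477 (plus strand) and chr9:100643421-100643449 (plus strand), to set beside those of the meiotic genes.
Smc1a: cactgcgctatTTCCCGCgcggg
Stag1: aaaggccacgtTTCCCGCgccgctgctgc

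Both hold TTCCCGC, the string also found in Stag3 and Smc1b. Counted from the RefSeq start, it lies at position 38 past it in Smc1a and at -16 in Stag1. The Stag1 match lies inside the gene span given above, which begins at 100597798. Its RefSeq start is therefore not the start of that span. The Stag1 window also held TTGCCGC on its opposite strand at position -192. The Smc3 window held no E2F letters. A window was found for 6 of the 10 cohesin genes. Of the 5 of these that were called higher, 4 held E2F letters, and Rec8, not called, held none.

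Levels were compared between genes per kilobase of annotated exon. In TKO libraries Rad21 was highest, at 2044 ± 207 normalized counts per kb, followed by Smc1a (951 ± 60.3), Smc3 (818 ± 75.8), Esco2 (500.1 ± 46.4), Stag2 (337 ± 27.4), Stag1 (267 ± 30.5) and Nipbl (183 ± 47.8). The meiotic genes came last, with Stag3 at 124 ± 1.93, Smc1b at 41.3 ± 7.46 and Rec8 at 13.9 ± 16.2 (SD, n = 3), so each stayed below the somatic gene or genes of its position. In THC libraries the order was the same except that Esco2, at 153 ± 27.7 per kb, stood below Stag2 (225 ± 46.2) and Stag1 (183 ± 33.4). THC libraries had 797 ± 117 per kb of Rad21, 617 ± 44.3 of Smc1a, 604 ± 35.5 of Smc3 and 142 ± 14.9 of Nipbl. Their levels of Stag3, Smc1b and Rec8 were 33.3 ± 7.79, 4.80 ± 2.28 and 3.53 ± 1.96 per kb (SD, n = 3). Between neighbours in the TKO order, the ranges of Smc1a and Smc3 overlapped and no others did. In THC libraries the ranges of Smc1a and Smc3, of Stag2 and Stag1, of Stag1 and Esco2, of Esco2 and Nipbl, and of Smc1b and Rec8 overlapped.

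The level per kb also gives the share of transcript that each meiotic gene held among the genes for its position in the ring. This share depends on the annotated exon lengths, and protein in the ring was not measured. Stag3 made up 17.0%, 15.8% and 18.4% of Stag1, Stag2 and Stag3 together in TKO 1, 2 and 3, against 7.75%, 8.85% and 6.12% in THC 1, 2 and 3. Smc1b made up 3.76%, 3.49% and 5.33% of Smc1a and Smc1b in TKO 1, 2 and 3, against 0.418%, 0.776% and 1.13% in THC 1, 2 and 3. In both cases every TKO share was above every THC share. Rec8 made up 0.312%, 0.129% and 1.73% of Rad21 and Rec8 in TKO 1, 2 and 3, and 0.360%, 0.674% and 0.274% in THC 1, 2 and 3. These Rec8 shares overlapped, with TKO 2 the lowest and TKO 3 the highest of the 6. Stag1 made up 44.2 ± 1.77% of Stag1 and Stag2 in TKO and 44.9 ± 1.13% in THC libraries (SD, n = 3 each), with overlapping libraries.

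**Figure D3:**
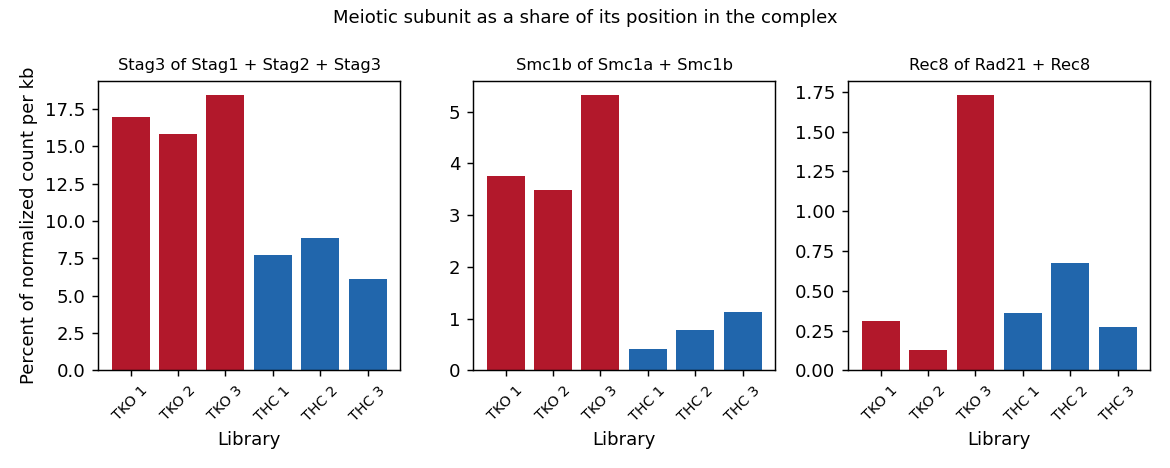
Transcript share of each meiotic gene among the genes for its position in the ring, per library, in percent of normalized count per kb. TKO libraries are in red and THC libraries in blue, with a separate axis for each panel. The Stag3 and Smc1b shares are higher in every TKO library than in any THC library, and the Rec8 share is high in TKO 3 only.

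The meiotic and somatic subunits were then compared within each library as a log2 ratio of normalized counts. Stag3 over Stag1 plus Stag2 was 1.34 higher in TKO than in THC libraries, 1.29 in the February pair and 1.37 in the November libraries. Smc1b over Smc1a was 2.50 higher, with 3.10 in February and 2.20 in November. For both, the 3 TKO ratios were above the 3 THC ratios, and the exact two-sided permutation test gave p = 0.1 (0.2 adjusted over the 4 ratios), where 0.1 is the smallest p that 3 against 3 libraries allow. Rec8 over Rad21 differed by -0.04 (exact permutation p = 1.0, adjusted p = 1.0). Stag1 over Stag2 differed by -0.04 as well (exact permutation p = 0.5, adjusted p = 0.667). The sign of both of these small differences changed when single libraries were left out, so no direction is given for either.

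The median log2 change was 1.91 over the 3 meiotic subunits, of which 2 were called higher, and 0.60 over the 5 somatic and shared core subunits, of which 5 were called higher. For the core subunits this median was 0.38 in the February pair and 0.69 in the November libraries.

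The other genes that load, release, protect or cut cohesin were followed as a list of 26, of which 25 could be tested. In TKO libraries 19 were called higher and 3 lower, beside shares of 14.3% higher and 13.6% lower over all genes tested. The median log2 change of the listed genes was 1.19. Those with the smallest adjusted p were Dscc1 and Chtf18, which belong to a clamp loader that supports cohesion at replication forks, Atad5, which unloads the PCNA clamp, and Haspin, a kinase that marks centromeric chromatin in mitosis. Haspin averaged 1053 ± 157 in TKO and 233 ± 58.5 in THC libraries (log2 change 2.19, SE 0.19, limma adjusted p = 8.8e-06), and Dscc1 averaged 973 ± 156 in TKO and 246 ± 42.8 in THC libraries (log2 change 1.98, SE 0.17, limma adjusted p = 5.9e-06). The log2 changes of Chtf18 and Atad5 were 1.62 (limma adjusted p = 1.4e-05) and 1.39 (limma adjusted p = 1.4e-05).

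Further genes of this list are given for their roles and were chosen after their values were seen. Cdca5 encodes sororin, which protects cohesion after SMC3 acetylation, and its log2 change was 1.64 (SE 0.16). Sgo1 and Sgo2a, the shugoshins that guard centromeric cohesin, had log2 changes of 1.65 and 1.61, and Espl1, the separase that cuts RAD21, had 1.43. Wapl, the release factor, had a log2 change of 0.50, Pds5a 0.58 and Pds5b 0.45. Ctcf, which halts cohesin on chromatin, had 0.50. All 8 were called, with limma adjusted p of at most 0.023, but Pds5b lost its call without TKO 2, TKO 3 or THC 2, Ctcf without TKO 2 or THC 2, and Wapl without TKO 2.

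The 3 genes called lower were Pttg1, Mau2 and Ppp2r1a. Pttg1 encodes securin, the inhibitor of separase, and averaged 899 ± 29.6 in TKO and 1336 ± 140 in THC libraries (SD, n = 3 each; log2 change -0.57, SE 0.12, limma adjusted p = 0.0045). Its direction was opposite to that of Espl1. Mau2, the partner of NIPBL in the loader, averaged 1513 ± 204 in TKO and 2211 ± 130 in THC libraries (SD, n = 3 each; log2 change -0.55, SE 0.13, limma adjusted p = 0.0077). Ppp2r1a, a scaffold of the phosphatase that works with shugoshin, had a log2 change of -0.51 (limma adjusted p = 0.017) and lost its call without TKO 1, TKO 3 or THC 1. Esco1, the acetyltransferase that acts outside S phase, averaged 679 ± 91.6 in TKO and 854 ± 180 in THC libraries and was not called (log2 change -0.32, SE 0.13, limma adjusted p = 0.095). Hdac8, which removes the acetyl group from SMC3, had a log2 change of -0.12 (limma adjusted p = 0.56).

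Other genes of meiotic chromosomes, 35 in number, cover pairing, strand breaks and recombination. Only 16 had enough reads to be tested. Of these 8 were called higher and 1 lower, beside shares of 14.3% higher and 13.6% lower over all genes tested. The median log2 change of the 16 was 0.98. The genes with the smallest adjusted p were Meiob, Msh5, Dmc1 and Tex15. Meiob, a single-strand DNA binding protein of meiotic recombination, had 102, 91.3 and 127 normalized counts in TKO 1, 2 and 3, and 6.01, 5.67 and 10.1 in THC 1, 2 and 3. Every TKO library was far above the THC libraries (log2 change 3.74, SE 0.39, limma adjusted p = 3.0e-05), though the THC values rest on few reads. Dmc1, the meiotic strand-exchange recombinase, had 190, 169 and 244 in TKO 1, 2 and 3, and 39.1, 44.4 and 49.5 in THC 1, 2 and 3, again with no overlap (log2 change 2.15, SE 0.26, limma adjusted p = 8.0e-05). Msh5, which stabilizes crossover intermediates, had a log2 change of 2.10 (SE 0.25, limma adjusted p = 7.1e-05), and Tex15, which is needed for meiotic repair, 2.96 (SE 0.37, limma adjusted p = 9.8e-05).

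Genes of the synaptonemal complex, the scaffold between paired chromosomes, did not all follow. These genes were picked for their role after their values were seen. Syce2 averaged 662 ± 145 in TKO and 280 ± 87.2 in THC libraries (log2 change 1.27, SE 0.17, limma adjusted p = 0.00016). Sycp2 averaged 14.6 ± 3.49 in TKO and 37.6 ± 17.8 in THC libraries and was not called (log2 change -1.21, SE 0.45, limma adjusted p = 0.066), although without THC 3 it passed as lower (log2 change -1.58, limma adjusted p = 0.032). Sycp3, the axis protein, averaged 5.35 ± 1.43 in TKO and 5.30 ± 2.60 in THC libraries (SD, n = 3 each) and was not tested. Of the 19 genes not tested none exceeded 17.6 normalized counts in any library, and 3 had 0 in all 6. Mlh3, a mismatch repair and crossover gene, was the gene called lower (log2 change -0.59, SE 0.17, limma adjusted p = 0.024) and lost its call without TKO 1, TKO 2, THC 1 or THC 2. Rec114 (log2 change -0.01, limma adjusted p = 0.99) and Mei4 (log2 change -0.20, limma adjusted p = 0.79), partners in making meiotic strand breaks, had the largest adjusted p of the list.

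**Figure D4:**
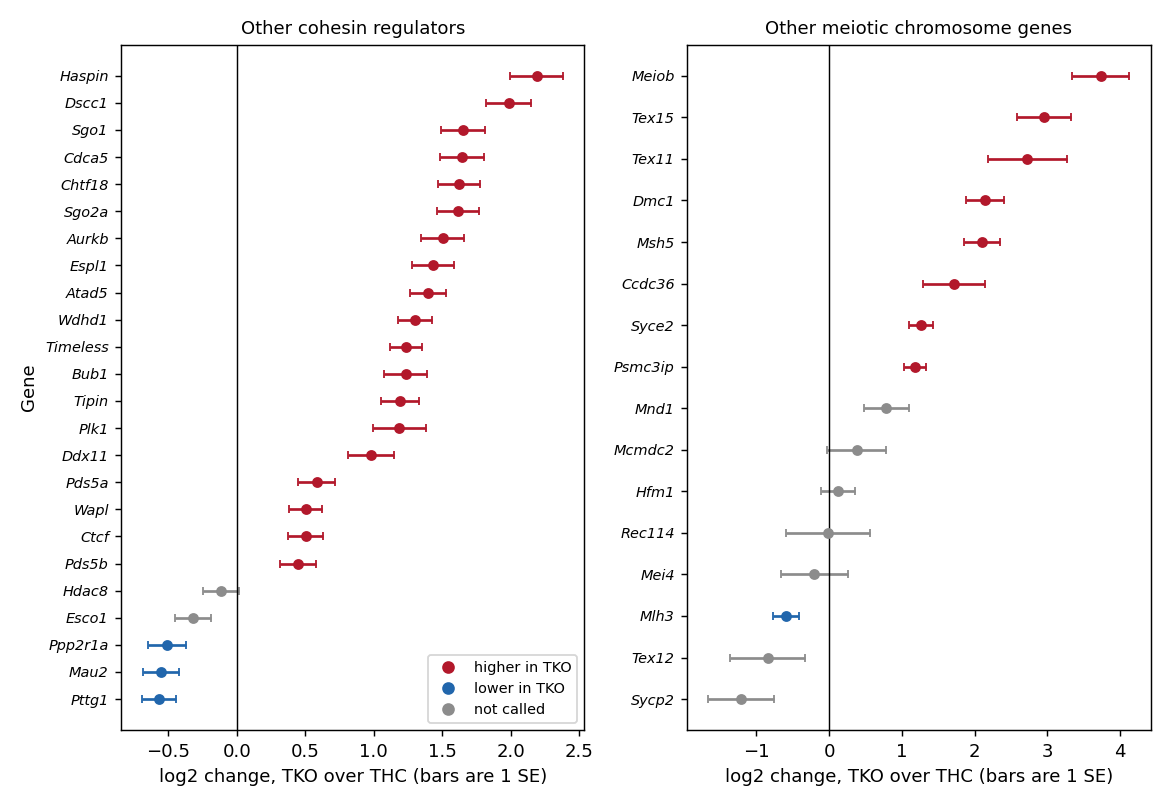
Log2 change, TKO over THC, with bars of 1 SE, of 24 tested genes that regulate cohesin (left panel) and of the tested genes of meiotic chromosomes (right panel), in red where called higher, blue where called lower and grey where not called. The left panel has 19 genes higher and 3 lower, and the right panel has 8 higher and 1 lower.

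E2F letters were looked up in the same way for these genes. Among the 4 meiotic chromosome genes with a window that were called higher, 3 held them, and their sites are printed with 11 bases on each side because each carries a string also found in Stag3. In Dmc1 a match on each strand overlaps the other, and the capitals cover both. The sites are at chr15:79605090-79605118 (minus strand), chr17:35046670-35046698 (minus strand) and chr8:84872213-84872241 (plus strand).
Dmc1: gcggccctcatTTGGCGCCAAgcccggag
Msh5: tgacggaaaagGCGGGAAagtgctgcgaa
Syce2: agggcgctgagGCGGGAAaagacggaatg

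E2F letters were also present in 2 of 6 meiotic chromosome genes with a window that were tested and not called, and in 5 of 14 of those not tested. Among the cohesin regulators called higher, 8 of 15 genes with a window held them, as did 1 of 3 among those called lower and 0 of 1 among those not called. A gene was counted when any of its windows held a match. These are counts of genes, while the 9.57% given above is a share of windows.

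Germ cell genes were measured in the same libraries. Of 6 germ cell markers, 3 could be tested and 0 were called in either direction, and without THC 3 a single one was called lower. Their summed level was 166 to 207 normalized counts in TKO and 185 to 306 in THC libraries, most of it from Kit, which other cells also express and which averaged 158.5 ± 20.5 in TKO and 228 ± 71.6 in THC libraries. Ddx4, the germ cell RNA helicase, averaged 8.55 ± 4.13 in TKO and 16.7 ± 5.68 in THC libraries, and Dazl, a germ cell RNA-binding protein, 9.71 ± 2.96 in TKO and 14.1 ± 9.65 in THC libraries (SD, n = 3 each). The other 3 did not exceed 8.02 in any library. In a wider list of 18 germ cell genes, 6 could be tested and 1, Prdm1, was called higher (log2 change 1.40, SE 0.31, limma adjusted p = 0.0054), with a median log2 change of -0.01. Over all genes tested 14.3% were called higher, so this count is not a result about germ cell genes. Prdm1 encodes a repressor that specifies germ cells and also acts in other lineages. The part of germ cell transcripts in the changes of the meiotic subunits was not tested.

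A list of 18 repressor genes held E2f6, genes of the complex PRC1.6, which E2F6 recruits to germ cell genes, and DNA methyltransferase genes. Of the 18, 5 were called higher, 1 lower and 12 not at all, with a median log2 change of 0.24. Over all genes tested 27.9% were called in either direction, so the count is not a result about the listed genes or the complex. E2f6 itself, named for its role, averaged 1635 ± 284 in TKO and 1142 ± 110 in THC libraries (log2 change 0.51, SE 0.15, limma adjusted p = 0.024). The E2f6 call was lost without TKO 2 (log2 change 0.35, limma adjusted p = 0.13) and without THC 2 (log2 change 0.43, limma adjusted p = 0.089). Its protein was not measured, and its part in the changes of Smc1b and Stag3 was not tested. Dnmt1, the maintenance DNA methyltransferase, had a log2 change of 0.98 (SE 0.17, limma adjusted p = 0.0013), and the E2F partners Tfdp1 and Tfdp2 had 0.67 (limma adjusted p = 0.0049) and 0.64 (limma adjusted p = 0.0039). L3mbtl2, a PRC1.6 subunit, completed the 5 (log2 change 0.52, limma adjusted p = 0.035) and lost its call without TKO 1, TKO 2, THC 1 or THC 2, and also with no filter (limma adjusted p = 0.059) and with no batch term (limma adjusted p = 0.0505). Ring1, a ubiquitin ligase of Polycomb complexes, was the gene called lower (log2 change -0.82, SE 0.17, limma adjusted p = 0.0034). Mga and Pcgf6, which are specific to PRC1.6, were not called, with log2 changes of 0.02 (limma adjusted p = 0.94) and -0.05 (limma adjusted p = 0.81).

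Annotated genes within 10 kb of the meiotic members were read as well, because the library chemistry keeps no strand and overlapping genes cannot be told apart. The gene next to Stag3 moved the other way. Gpc2, a cell-surface proteoglycan gene 235 bases from Stag3 on the opposite strand, averaged 81.5 ± 16.1 in TKO and 145 ± 12.9 in THC libraries (log2 change -0.83, SE 0.25, limma adjusted p = 0.026). Its call was lost without TKO 1, TKO 3, THC 1 or THC 3 (limma adjusted p 0.12, 0.096, 0.14 and 0.053), and its log2 change was -0.66 in the November libraries alone. Ribc2, 114 bases from Smc1b on the opposite strand, averaged 162 ± 41.2 in TKO and 116 ± 49.3 in THC libraries and was not called (log2 change 0.56, limma adjusted p = 0.24). Fam118a, 1859 bases from Smc1b, had a log2 change of 0.72 (limma adjusted p = 0.0075), and lost its call without TKO 1 or THC 1 (log2 change 0.44). Ipo4, 5 bases from Rec8 on the opposite strand, had far more reads than Rec8. It averaged 341 ± 27.7 in TKO and 288 ± 36.7 in THC libraries (log2 change 0.25, limma adjusted p = 0.32). Irf9, an interferon-response factor 8007 bases from Rec8, averaged 1562 ± 112 in TKO and 564 ± 80.5 in THC libraries (log2 change 1.48, SE 0.14, limma adjusted p = 1.4e-05). Gal3st4 and Gm43720 near Stag3 and Gm49378 near Rec8 had too few reads to be tested, with at most 5.01 normalized counts in any library. The pseudogene Gm10923, which overlaps Smc1b, averaged 11.6 ± 2.64 in TKO and 5.96 ± 3.58 in THC libraries. Over all 10 members, 8 annotated genes overlapped one of them, and none of these exceeded 85.0 normalized counts in any library.

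The genes whose pattern over the 6 libraries was most like that of a member were ranked by the root mean square difference of mean-centred log2 values among 11904 or 11905 genes. For Smc1b these were Ccna1, the cyclin A of male meiosis (difference 0.190), Emp1, a membrane protein (0.217), and Ybx2, a germ cell RNA-binding protein (0.222). Ccna1 averaged 697 ± 47.7 in TKO and 82.3 ± 23.3 in THC libraries (log2 change 3.11), and Ybx2 averaged 273 ± 57.9 in TKO and 31.0 ± 13.4 in THC libraries (log2 change 3.15). For Stag3 they were Brip1, a helicase of crosslink repair (0.142), Irgm1, an interferon-induced GTPase (0.154), and Pmp22, a myelin protein (0.157). Brip1 averaged 862 ± 49.1 in TKO and 226 ± 75.5 in THC libraries. For Esco2 the nearest were Kif18b, a mitotic kinesin (0.049), Cenpq, a kinetochore protein (0.054), and Fignl1, a recombination ATPase (0.061). Smc1b and Stag3 had fewer reads than Esco2, so the differences are not compared from one member to another.

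The cell cycle and the cell make-up moved with genotype beside these results. All 10 proliferation markers were called higher in TKO, with a median log2 change of 1.48 and summed levels of 90756 to 105750 normalized counts in TKO libraries and 29643 to 45061 in THC libraries. Their part in the cohesin changes was not tested. Beside that median, the log2 change was 0.60 for the median core subunit, 1.72 for Esco2, 1.91 for Stag3 and 3.13 for Smc1b. Oligodendrocyte markers were lower, with 5 of 5 called and sums of 11410 to 20176 in TKO and 70563 to 79485 in THC libraries. Endothelial and mural markers had 7 of 8 called lower, with sums of 4513 to 7087 in TKO and 11295 to 19529 in THC libraries. Neuroblast markers had 4 of 6 called lower, with sums of 19909 to 27419 in TKO and 28920 to 43362 in THC libraries. That count was 3 without TKO 1, TKO 2, TKO 3, THC 1 or THC 3, and with November alone. Of the stem cell and astrocyte markers 2 of 8 were higher and 1 lower, with sums of 116077 to 151772 in TKO and 114259 to 192665 in THC libraries. Microglia markers had 2 of 6 higher (sums of 441 to 3166 in TKO and 226 to 1968 in THC libraries), ependymal markers 1 of 6 higher and 2 lower (5190 to 6939 in TKO and 4024 to 12224 in THC libraries), and 0 of 4 transit-amplifying progenitor markers were called (6117 to 8386 in TKO and 6206 to 7949 in THC libraries). Over all genes tested 27.9% were called in either direction. The small counts of stem cell and astrocyte, microglia, ependymal and progenitor markers are therefore not read as results about these cells. Several of these small counts turned on single libraries. Microglia markers called higher numbered 0 without TKO 2, 1 without TKO 1, THC 1 or THC 3, and 4 without THC 2. Ependymal markers called lower numbered 1 without TKO 2, TKO 3, THC 2 or THC 3, and 0 were called higher without TKO 1 or THC 1. Stem cell and astrocyte markers called lower numbered 2 without TKO 3 and 3 without THC 3. A single progenitor marker was called higher without TKO 1 or THC 1, and a single one lower without TKO 2. Their part in the cohesin changes was not tested either.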

How the data were processed

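The series compares 3 TKO with 3 THC libraries of sorted subventricular zone cells. Groups, replicate numbers and batches came from the labels. Each sample pooled several mice with at least 200000 sorted cells, and at least 35 ng of RNA with an RNA quality number of at least 8.0 was amplified with SMART-Seq v4 and Nextera XT, per the labels' protocols, which keeps no strand. Per the submitters' processing notes, the tools were HISAT2, Subread's featureCounts and DESeq2, and the build GRCm38. The sources used here do not give versions, the annotation or how reads shared by similar genes were counted.

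The authors' deposited table holds, per gene, a normalized count per sample (a signal, read counts divided by 1 factor per sample) and its mean. Per the file headers it also holds the authors' log2 fold change and its error, a Wald score, a p-value and an adjusted p-value, and a weight, which is a score. Each deposited value was a whole multiple of a step of 0.944 to 1.07 (100% within 0.001 of a read), which gave 15536084 to 16961817 reads per library. Chi-square per degree of freedom within a genotype was 15.5 to 44.5, so no library only repeated the reads of another. Whether libraries came from separate pools cannot be told from this value. 23469 genes had no reads.

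Genes with at least 10 normalized counts in at least 3 libraries were tested with limma 3.58.1 (R 4.3.3) on log2(value + 1), with an intensity trend and batch plus genotype as terms, 3 residual and 8.90 prior degrees of freedom, two-sided, Benjamini-Hochberg over 17278 genes. Fold changes on this scale understate those of low genes. Recovered whole reads were tested with edgeR 4.0.16 (2365 genes higher, 2413 lower) and DESeq2 1.42.0 as alternatives. The tests were tried on simulated data first. Ratios of paralogs used log2 of values with 1 added and exact permutation. Gene spans and exon lengths came from GENCODE M21 (GRCm38), and promoter sequences from RefSeq (GRCm38.p6). Of 166 list genes, 1 was matched by another symbol and 0 were unmatched.

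The members and lists were chosen with earlier results of these data known. Named genes were the 10 members, the genes overlapping or within 10 kb of the meiotic members, Rb1, Rbl1 and Rbl2, per other list the 4 tested genes with the smallest and the 2 with the largest adjusted p, and the 3 nearest patterns to Stag3, Smc1b and Esco2 among genes with a mean of at least 100. Genes named for their role are marked in the text, and of the cell type lists counts and sums alone are given. The values of 1 listed gene are not reported here, though it is in the counts. Alternatives were pseudocounts, filters, scaling, other tools, no batch term, a block, single libraries left out and November alone. The p-values measure the spread between pooled samples.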

Additional observations from a re-analysis of the deposited data

How the results depend on the processing

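Over 17 alternative settings, Smc1a, Smc1b, Rad21, Stag2, Stag3 and Esco2 kept their direction and their call. Smc3 lost its call in 6 settings and Stag1 in 2, Nipbl gained one in 3, and Rec8 gained one in 2 of the 16 in which it was tested. The settings without TKO 1, without THC 1 and with November alone gave the same contrast. The 3 gains of Nipbl are therefore not separate results, and the same settings are among the 6 of Smc3. Leaving out 1 library gave 6 to 8 cohesin genes higher and 0 lower, 1890 to 2205 genes higher and 1637 to 2063 lower over the table (2469 and 2345 with all libraries), 16 to 19 cohesin regulators higher and 2 to 3 lower, and 7 to 9 meiotic chromosome genes higher and 0 to 2 lower. November alone gave 0 meiotic chromosome genes lower. E2F6 and PRC1.6 genes called higher numbered 3 to 5, with 3 without TKO 2 and 3 without THC 2. With no filter, 2 germ cell genes were higher and 1 lower. The log2 ratio of Rec8 over Rad21, -0.04 with all libraries, was 0.16 without TKO 1, 0.76 without TKO 2, 0.29 without THC 2 and 0.10 in November alone, and ranged from -1.05 to 0.76. Stag1 over Stag2 was 0.0066 without TKO 1 and ranged from -0.10 to 0.0066. Ratios of Stag3 and Smc1b kept their sign (1.18 to 1.47 and 2.13 to 2.82). The cause of these shifts was not tested.

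The replicate numbers share only the batch of pair 1. Deviations of same-numbered libraries correlated at 0.23, -0.11 and 0.14, and TKO 2 correlated better with THC 3 (0.18). With a replicate block, 2147 genes were higher and 1922 lower, 7 cohesin genes were higher, and Smc3, Pds5b and L3mbtl2 lost their calls (limma adjusted p 0.059, 0.0503 and 0.062). Paired exact permutation of the Stag3 and Smc1b ratios gave p = 0.25, the smallest that 3 pairs allow. Over 139 single genes, 2236 values kept their status as called or not called, 36 gained a call and 76 lost it. Where either fit gave a call, 0 reversed direction. Genes with no call in either fit could change sign, as Ribc2 did in the November libraries (log2 change -0.0069). Depth limits Rec8 (7 to 99 reads) and the THC values of Smc1b (11 to 29 reads).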
